A study of Mus musculus with 12 samples.

Results

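Transcription factors and Notch components that guide keratinocytes through epidermal differentiation were examined in the periocular skin of filaggrin-deficient mice with and without MyD88. The members were taken by symbol from the gene names of the count table: *Trp63*, *Klf4*, *Grhl1*, *Grhl3*, *Ovol1*, *Zfp750*, *Prdm1*, *Notch1*, *Jag1* and *Hes1*. All 10 were found among 21247 genes, and all 10 passed the filter of at least 10 counts summed over the libraries, as did 20454 genes in all. Positions of genes are those of RefSeq on GRCm38.p6. *Notch1* encodes a receptor and *Jag1* a ligand, so 8 of the 10 are transcription factors. The study asked what the loss of MyD88, the adaptor of Toll-like and IL-1 family receptors, does to skin that lacks filaggrin, a structural protein of the cornified layer. Bulk RNA-seq was made from eye-skin biopsies of 4 ft/ft mice, which carry a loss-of-function mutation of filaggrin, and 4 ft/ftMyD88-/- mice, which carry the same mutation and also lack MyD88. Both groups are BALB/c, aged 6 weeks and given as female, with no treatment stated. The 4 WT samples were not analysed here.

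Epidermis renews from a basal layer whose cells stop dividing, move up through spinous and granular layers and end as cornified cells. The p63 protein, from *Trp63*, keeps basal cells in the stratified lineage, and KLF4, GRHL1, GRHL3, OVOL1, ZNF750 and BLIMP1 (from *Prdm1*) act in the exit from the basal layer and in the late programme of barrier formation. Notch signalling promotes the step from basal to spinous cells: a ligand such as JAG1 binds NOTCH1, gamma-secretase releases the intracellular part of the receptor, and this part acts with the DNA-binding protein RBPJ on targets such as *Hes1*.

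Total counts were 18941705 to 29255129 per library in ft/ft and 15802957 to 27037997 in ft/ftMyD88-/-. Levels below are CPM, counts scaled to a common library size with TMM factors. An adjusted p comes from the quasi-likelihood test of edgeR, adjusted by Benjamini and Hochberg's method over all genes tested, and a gene was called when it was under 0.05. The ft/ft libraries, but not the ft/ftMyD88-/- libraries, went against the female sex given for the mice. *Xist* had 1, 0, 0 and 0 counts in ft/ft against 567 to 1964 in ft/ftMyD88-/-, and the Y-linked *Ddx3y* had 1095 to 1864 against 0 to 11. Genotype and sex therefore cannot be told apart in any difference between the libraries labelled ft/ft and those labelled ft/ftMyD88-/-. *Myd88* itself did not fall in ft/ftMyD88-/- libraries (41.2 ± 7.29 CPM against 30.7 ± 4.74, SD, n = 4 each; edgeR adjusted p = 0.0484), and gene counts do not show whether its reads come from outside the deleted part. In a bulk biopsy, fewer cells of a type and less RNA per cell cannot be told apart.

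None of the 10 members passed the threshold between the groups, with 0 called by edgeR and 0 by limma voom, while DESeq2 called *Jag1* alone. Over all genes tested, edgeR called 23.3% (10.9% higher and 12.3% lower in ft/ftMyD88-/-). Among the 3806 genes whose mean CPM lay within the range of the members (54.3 to 519), it called 32.2% (7.72% higher and 24.5% lower). At an unadjusted p under 0.05, 2 of the 10 members passed (*Trp63* and *Jag1*), or 20%, against 36.9% of all genes and 47.3% of the genes of like level. The median absolute log2 fold change was 0.14 over the members and 0.22 over the genes of like level. The median signed log2 fold change was -0.05 over the members, of which 4 of 10 were above 0, and 0.01 over all genes tested. The members' counts lay below these shares, a difference that was not tested over 10 genes. Each member is given below with its interval, since a missed threshold does not show that the groups were alike.

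**Figure D1:**
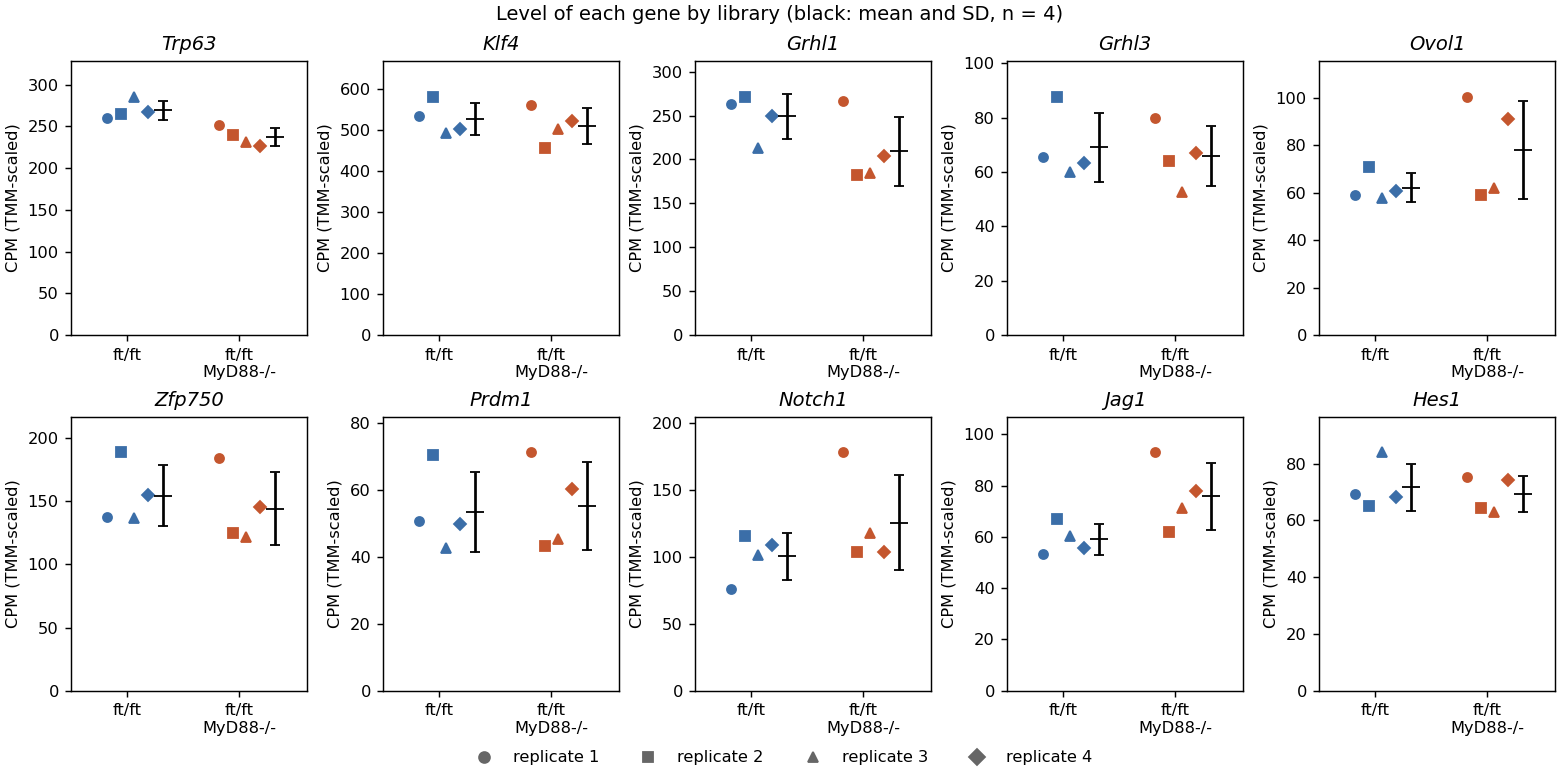
Level of each of the 10 genes in CPM (TMM-scaled, axis from 0) in the 4 ft/ft libraries (blue) and the 4 ft/ftMyD88-/- libraries (orange), with symbols for replicates and black bars for mean and SD. The groups stand apart without overlap in *Trp63* only, and replicate 1 of ft/ftMyD88-/- is the highest of its group in all 10 genes.

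*Trp63* (chr16:25683763-25892088), the regulator of the basal layer, was the steadiest of the members within groups and the only one whose groups did not overlap. Its level was 259.6, 265, 285 and 267 CPM in ft/ft replicates 1 to 4 and 252, 239.8, 232 and 226 CPM in ft/ftMyD88-/-. Every ft/ftMyD88-/- library lay below every ft/ft library. Groups that did not overlap, in either direction, were found in 26.7% of all genes tested and 36.2% of those of like level. The difference was small, from 269 ± 11.3 to 237 ± 11.1 CPM, a fold of 0.882 (95% interval 0.782 to 0.994). It did not pass in edgeR (log2 fold change -0.18, SE 0.0798, adjusted p = 0.119), and the two-sided exact permutation test of 4 against 4 gave p = 0.0286, the smallest it can give. With library size alone its log2 fold change was -0.01 and with libraries scaled to 8 epithelial genes 0.04. These scalings moved all genes alike, and relative to the median of all genes *Trp63* stood at -0.19, -0.19 and -0.20 under TMM and the other 2.

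*Klf4* (chr4:55527137-55532475), a factor of the upper layers and of barrier formation, had the highest level of the members. Its CPM was 533, 581, 494 and 504 in ft/ft and 559.9, 456, 502 and 522 in ft/ftMyD88-/-. The groups overlapped, with replicate 2 of ft/ftMyD88-/- below all of ft/ft, and the log2 fold change of -0.05 (SE 0.0961, edgeR adjusted p = 0.748) had an interval of -0.26 to 0.16, or a fold of 0.836 to 1.12.

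The grainyhead-like factors *Grhl1* (chr12:24572232-24617391) and *Grhl3* (chr4:135541887-135573632), which act on cell adhesion genes and on closure of the barrier, both overlapped between the groups. *Grhl1* had 263, 271, 213 and 249.5 CPM in ft/ft and 267, 183, 184 and 204 CPM in ft/ftMyD88-/-. In ft/ftMyD88-/- replicate 1 reached the ft/ft levels and the other 3 libraries lay below all of ft/ft. The log2 fold change was -0.25 (95% interval -0.53 to 0.03, edgeR adjusted p = 0.177), and without ft/ftMyD88-/- replicate 1 it was -0.38 and passed (adjusted p = 0.0211). *Grhl3* had 65.3, 87.6, 59.8 and 63.3 CPM in ft/ft and 79.7, 64.0, 52.8 and 66.9 in ft/ftMyD88-/-. A single library of each group stood above the rest, and the log2 fold change was -0.07 (95% interval -0.38 to 0.24, adjusted p = 0.766).

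*Ovol1* (chr19:5549137-5560575), a zinc finger repressor that favours the exit from proliferation, was spread more widely in ft/ftMyD88-/-. It had 58.8, 70.9, 57.7 and 60.9 CPM in ft/ft and 100.3, 58.8, 62.1 and 90.9 CPM in ft/ftMyD88-/-. Replicates 1 and 4 of ft/ftMyD88-/- lay above all of ft/ft and replicates 2 and 3 within it. The fold was 1.26 (95% interval 0.973 to 1.62, log2 fold change 0.33, edgeR adjusted p = 0.180), and without ft/ftMyD88-/- replicate 1 the log2 fold change was 0.19 (adjusted p = 0.394). The same replicates, 1 and 4, were the highest of the 8 libraries in 7 marker genes of the hair matrix, the growing base of the hair, where *Ovol1* is also expressed. Their summed level was 1061 and 599 CPM in those replicates, 154 and 279 CPM in replicates 2 and 3, and 94.1 to 168 CPM in ft/ft. The part of hair matrix in the *Ovol1* levels was not tested. *Ovol1* also overlaps 2 annotated genes on the other strand, with 690 and 76 shared exon bases. Neither is among the genes counted, and whether the libraries mark strand is not given in the sources used here.

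*Zfp750* (chr11:121510976-121519342), a p63 target that switches on late differentiation genes, had 137, 189, 137 and 155 CPM in ft/ft and 184, 125, 122 and 146 CPM in ft/ftMyD88-/-. Replicates 2 and 3 of ft/ftMyD88-/- lay below all of ft/ft and the other 2 within its range, and the log2 fold change was -0.10 (95% interval -0.41 to 0.21, edgeR adjusted p = 0.664). *Prdm1* (chr10:44437174-44528558), a repressor used in granular cells and sebaceous progenitors and also by plasma cells and T cells, had 50.7, 70.6, 42.7 and 49.8 CPM in ft/ft and 71.3, 43.4, 45.5 and 60.4 CPM in ft/ftMyD88-/-. Its groups had nearly the same mean, 53.4 ± 11.9 and 55.1 ± 13.1 CPM (log2 fold change 0.04, 95% interval -0.38 to 0.46, adjusted p = 0.898). Some markers of the immune cells that use *Prdm1* differed between the groups. The 5 plasma cell genes summed to 1.46 to 5.02 CPM in ft/ft and 5.92 to 32.1 CPM in ft/ftMyD88-/-, with replicates 1 and 4 the highest. Most of this sum was *Jchain* (means of 1.63 and 15.3 CPM). *Pou2af1* was also called higher, while *Mzb1* (log2 fold change 0.71), *Tnfrsf17* (-0.20) and *Derl3* (-0.03) were not called. The 6 T cell genes summed to 16.1 to 20.4 CPM in ft/ft and 27.5 to 34.9 CPM in ft/ftMyD88-/-. The part of these cells in the *Prdm1* level was not tested.

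The 250 bases before an annotated start were available from RefSeq (GRCm38.p6) for 6 of the 10 members, in 7 windows, with the *Prdm1* window and both *Grhl1* windows at starts inside the span of the gene. *Trp63*, *Ovol1*, *Zfp750* and *Hes1* had no entry. The windows were searched on both strands for the word TGGGAA, the core that RBPJ binds, for AACCNGTT of the grainyhead-like factors, for CACCC of the KLF family and for the N-box CACNAG of HES proteins. The searched words do not contain each other. TGGGAA was found in *Grhl3* and *Prdm1* and in 21.6% of 32851 windows of all genes, AACCNGTT in no member window and 1.79% of all, CACCC in *Notch1*, *Grhl3* and *Grhl1* and 52% of all, and CACNAG in *Notch1* and *Grhl3* and 36.7% of all. The *Grhl3* and *Prdm1* windows are shown since these are the members with the RBPJ word. Both genes lie on the minus strand, the sequences read 5′ to 3′ along the gene, and capitals mark the RBPJ word on the opposite strand, which starts 153 bases before the start in *Grhl3* (chr4:135573633-135573882) and 189 bases before it in *Prdm1* (chr10:44458749-44458998).
Grhl3: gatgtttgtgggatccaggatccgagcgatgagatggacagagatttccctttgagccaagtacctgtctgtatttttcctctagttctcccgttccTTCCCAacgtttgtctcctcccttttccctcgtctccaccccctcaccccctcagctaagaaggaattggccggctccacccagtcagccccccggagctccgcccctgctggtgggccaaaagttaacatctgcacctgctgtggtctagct
Prdm1: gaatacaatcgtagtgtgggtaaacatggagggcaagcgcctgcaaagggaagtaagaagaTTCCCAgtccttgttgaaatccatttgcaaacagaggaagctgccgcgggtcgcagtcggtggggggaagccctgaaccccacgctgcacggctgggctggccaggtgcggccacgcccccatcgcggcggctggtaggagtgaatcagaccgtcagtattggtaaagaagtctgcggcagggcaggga
A match of letters is no evidence of binding, and no binding was measured.

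The Notch receptor *Notch1* (chr2:26457902-26503822) was set apart by a single library. It had 75.6, 115, 101 and 109 CPM in ft/ft and 178, 103, 117 and 103 CPM in ft/ftMyD88-/-. Replicate 1 of ft/ftMyD88-/- lay above all other libraries, and its other 3 libraries lay within the range of ft/ft or just above it. The fold was 1.25 (95% interval 0.933 to 1.68, log2 fold change 0.32, edgeR adjusted p = 0.252), and without that library the log2 fold change was 0.11 (adjusted p = 0.592). *Notch1* shares 1068 and 414 exon bases with 2 annotated genes on the other strand, neither of which is among the genes counted.

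*Jag1* (chr2:137081451-137116520), the ligand, came closest to the threshold. It had 53.2, 67.2, 60.4 and 55.6 CPM in ft/ft and 92.9, 61.9, 71.2 and 77.7 CPM in ft/ftMyD88-/-. Of the ft/ftMyD88-/- libraries, 3 lay above all of ft/ft and replicate 2 lay within it. The mean went from 59.1 ± 6.16 to 75.9 ± 13.1 CPM, a fold of 1.28 (95% interval 1.07 to 1.55), with a log2 fold change of 0.36 (SE 0.123, edgeR adjusted p = 0.0506, two-sided exact permutation p = 0.0571). The call changed with the method: DESeq2 gave an adjusted p of 0.0325, limma voom 0.0595, edgeR with DESeq2-type size factors 0.0463 and edgeR with a stricter filter on low counts 0.0433. It also changed with single libraries, being called without ft/ft replicate 2 (adjusted p = 0.0353) or ft/ftMyD88-/- replicate 2 (0.0238), while without ft/ftMyD88-/- replicate 1 it was 0.123. Over 10 other settings and the 8 sets with a library left out, the log2 fold change of *Jag1* was 0.25 to 0.58.

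*Hes1* (chr16:30065357-30067796), a target gene of the pathway, had nearly the same mean in both groups. It had 69.3, 65.0, 83.9 and 68.3 CPM in ft/ft and 75.1, 64.5, 63.1 and 74.2 CPM in ft/ftMyD88-/-. The groups overlapped (log2 fold change -0.05, 95% interval -0.27 to 0.17, edgeR adjusted p = 0.763).

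Levels of different genes were compared per kilobase of annotated exon, counting every base in an exon of any annotated transcript. That length can rise with the number of annotated transcripts, which was 11 for *Notch1* and 1 for *Grhl3* and *Zfp750*. Other lengths were not tried, so the order of levels may depend on this choice. *Klf4* was the highest in ft/ft at 173 ± 12.9 CPM per kb, followed by *Zfp750* at 47.8 ± 7.52 and *Grhl1* at 45.0 ± 4.61, which did not differ beyond their SD. *Hes1* (35.2 ± 4.11) and *Trp63* (32.1 ± 1.35) did not differ beyond their SD either. *Grhl3* (24.7 ± 4.52 CPM per kb) and *Ovol1* (17.8 ± 1.73) came next. *Jag1* (10.1 ± 1.06) and *Prdm1* (9.58 ± 2.14) did not differ beyond their SD, nor did *Prdm1* and *Notch1*, which had the lowest mean at 7.04 ± 1.22 CPM per kb. In ft/ftMyD88-/- the order of the means was the same. There *Zfp750* (44.6 ± 8.88 CPM per kb), *Grhl1* (37.8 ± 7.13) and *Hes1* (34.0 ± 3.10) did not differ from each other beyond their SD. Nor did *Trp63* (28.3 ± 1.32), *Grhl3* (23.6 ± 3.96) and *Ovol1* (22.4 ± 5.94), or *Jag1* (13.03 ± 2.24), *Prdm1* (9.88 ± 2.36) and *Notch1* (8.81 ± 2.49). The transcripts of highest level per length thus belonged to a factor of the upper layers, and those of lowest level to the receptor and ligand and *Prdm1*.

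**Figure D2:**
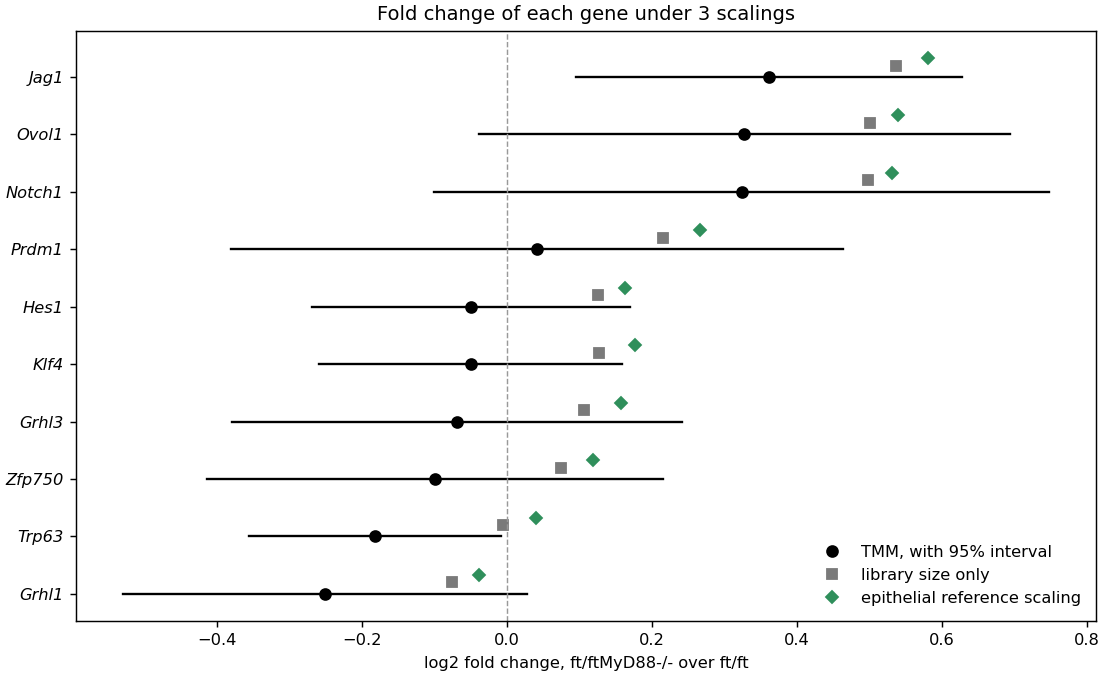
Log2 fold change of each gene, ft/ftMyD88-/- over ft/ft, with TMM scaling and its 95% interval (black), with library size alone (grey) and with scaling to 8 epithelial genes (green). The order of the genes is nearly kept while all move to the right under the other scalings, where *Klf4*, *Grhl3*, *Zfp750* and *Hes1* change sign and, with epithelial scaling, *Trp63* too.

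The sign of the smaller differences depended on how libraries were scaled. With library size alone the median of all genes was 0.19 on the log2 scale and with epithelial scaling 0.24, and the members moved with it. Relative to the median of all genes, *Jag1* stood at 0.35, 0.35 and 0.34 under TMM, library size and epithelial scaling, *Ovol1* at 0.31, 0.31 and 0.30, and *Grhl1* at -0.26, -0.27 and -0.28. With epithelial scaling 3 members were called higher: *Jag1* (log2 fold change 0.58, adjusted p = 0.00262), *Ovol1* (0.54, 0.00944) and *Notch1* (0.53, 0.0179). Of all genes, 19.2% were called higher with that scaling. Under TMM, 4 of the 8 genes that set the epithelial scale were themselves called lower in ft/ftMyD88-/- and 0 higher. With library size alone, *Jag1* (0.54, adjusted p = 0.00688) and *Ovol1* (0.50, 0.0363) were called, 2 of 10 beside 22.7% of all genes. *Jag1*, *Ovol1* and *Notch1* kept a positive sign under all 3 scalings and *Grhl1* a negative one.

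Libraries of a group differed in a way that most members shared. Replicate 2 was the highest ft/ft library in 8 of the 10 genes, all but *Trp63* and *Hes1*, where replicate 3 was. Replicate 1 was the highest ft/ftMyD88-/- library in all 10. The same libraries were the highest of their groups in 8 epithelial reference genes, mostly of adhesion and splicing (among them *Cdh1*, *Dsp* and *Esrp1*). The geometric mean of these genes was 498 CPM in ft/ft replicate 2 against 412 to 426 in the other ft/ft libraries. It was 435 CPM in ft/ftMyD88-/- replicate 1 against 340 to 367 in the others. Scaled to these 8 genes, the SD over ft/ft libraries of log2 *Ovol1* went from 0.13 to 0.04 and that of *Grhl3* from 0.25 to 0.12, while those of *Trp63* (0.06 to 0.16) and *Hes1* (0.16 to 0.26) went up and those of 8 of the 10 genes went down. In ft/ftMyD88-/- the SD went down for 9 of the 10 genes and up for *Trp63* (from 0.07 to 0.11). ft/ft replicate 2 also stood apart in the sum of 5 genes listed as neutrophil markers. It was 250.1 CPM, against 21.6 to 36.4 in the other ft/ft libraries and 399 to 959 in ft/ftMyD88-/-. Most of this sum was *S100a8* and *S100a9*, whose highest ft/ft levels were 88.4 and 134 CPM. *Csf3r* and *Cxcr2* of the same list reached at most 6.15 and 21.4 CPM in ft/ft. With both of these libraries left out, 1 member was called lower, *Grhl1* (log2 fold change -0.34, edgeR adjusted p = 0.0456), beside 9.84% of all genes, and *Jag1* had an adjusted p of 0.0595. The part of epithelial, hair or immune content in these levels was not tested.

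**Figure D3:**
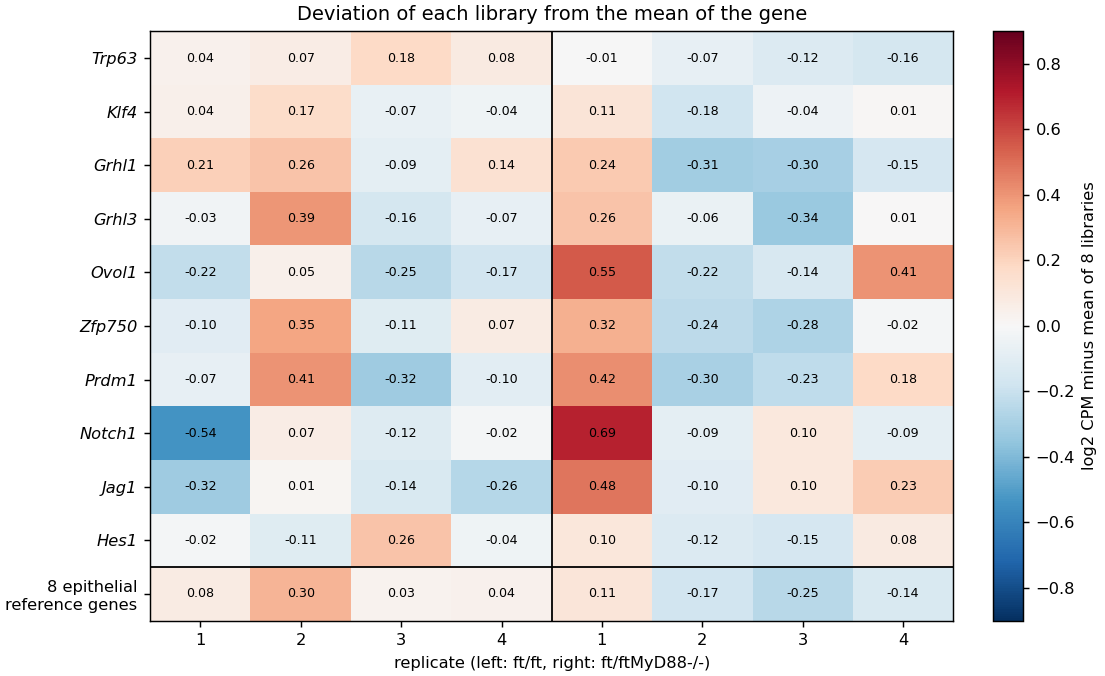
Log2 CPM of each of the 10 genes, and of the mean of 8 epithelial reference genes, in each library minus the mean of the 8 libraries (red above it, blue below it). Replicate 2 of ft/ft and replicate 1 of ft/ftMyD88-/- are above the mean in most rows, the reference row included.

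Ratios of 2 members within a library do not depend on its scaling, and 5 were compared. The ratio of *Klf4* to *Trp63* counts, an upper-layer factor over the basal one, was 2.05, 2.19, 1.73 and 1.89 in ft/ft and 2.23, 1.90, 2.17 and 2.31 in ft/ftMyD88-/-. The groups overlapped, at a fold of 1.10 (95% interval 0.867 to 1.33, exact permutation p adjusted over the 5 ratios = 0.381). *Zfp750* over *Trp63* had a fold of 1.05 (0.733 to 1.53, adjusted exact permutation p = 0.714), and *Grhl3* over *Grhl1* 1.15 (0.888 to 1.41, adjusted exact permutation p = 0.381). Within the Notch axis, *Jag1* over *Notch1* had a fold of 1.03 (0.743 to 1.47, adjusted exact permutation p = 0.714). *Hes1* over *Notch1*, the target per receptor, was 0.917, 0.564, 0.829 and 0.629 in ft/ft and 0.423, 0.625, 0.537 and 0.718 in ft/ftMyD88-/-, a fold of 0.784 (0.461 to 1.27, adjusted exact permutation p = 0.381). No ratio separated the groups, and the intervals leave room for changes of up to 1.27 to 1.53-fold upward and down to folds of 0.461 to 0.888.

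**Figure D4:**
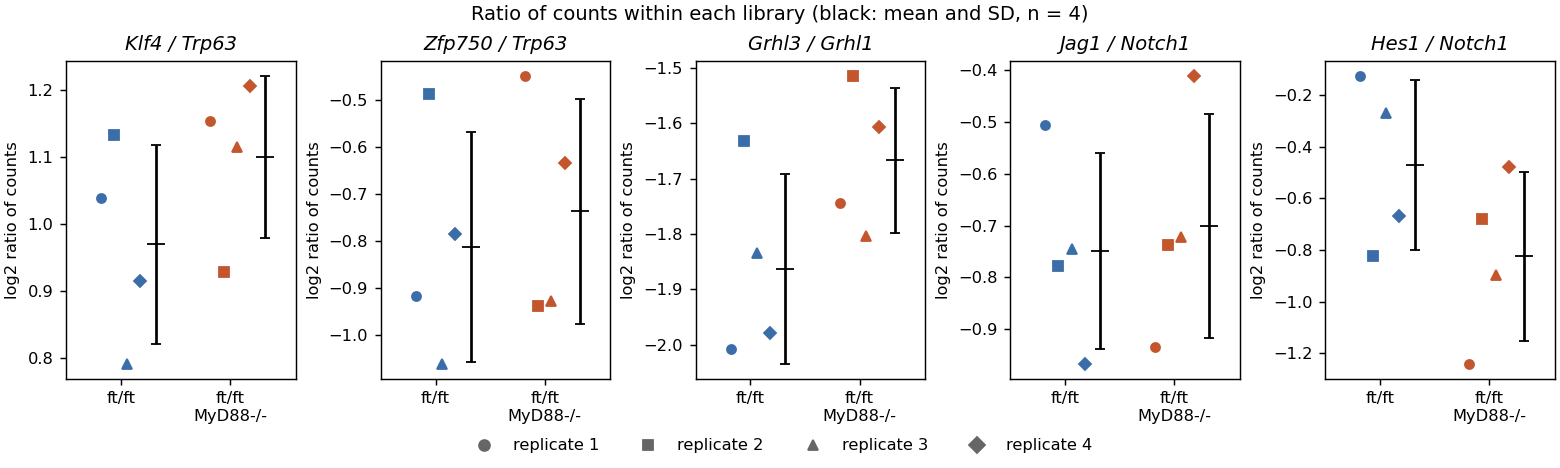
Log2 ratio of the counts of 2 genes within each library, for 5 pairs, in ft/ft (blue) and ft/ftMyD88-/- (orange), with black bars for mean and SD. The groups overlap in all 5 panels, whose vertical axes differ and do not start at 0.

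Genes whose profile over the 8 libraries was nearest to that of *Jag1* and of *Trp63* (root mean square difference of log2 CPM after centring each gene, 13507 candidates) were found as a description. For *Jag1* they were *Vdr* (0.054), *Gyltl1b* (0.0639) and *Polr1b* (0.0671), and for *Trp63* they were *Tbl2* (0.0327), *Ip6k2* (0.0348) and *Smo* (0.0417).

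Other transcription factors of the epidermis did pass the threshold, in both directions. Of 25, edgeR called 6 higher and 4 lower, with a median log2 fold change of 0.11, beside 10.9% higher and 12.3% lower over all genes tested. The highest was *Fosl1*, an AP-1 subunit, whose mean went from 1.70 ± 0.623 to 4.57 ± 0.807 CPM (log2 fold change 1.40, adjusted p = 0.00265). *Junb*, another AP-1 subunit, went from 202 ± 8.85 to 285 ± 52.3 CPM (0.49, adjusted p = 0.0134, and 0.0544 without the 2 libraries that stood apart). Also called higher, and named after their values were seen, were *Cebpb* (0.48), *Vdr*, the vitamin D receptor (0.38), and *Tfap2c* (0.28). *Vdr* and *Tfap2c* each lost the call when any of 6 of the 8 libraries was left out (adjusted p up to 0.0957 for *Vdr* and 0.0984 for *Tfap2c*).

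Among the factors that fell, *Satb1*, a chromatin organiser of basal keratinocytes and of T cells, went from 15.1 ± 1.99 to 7.39 ± 2.26 CPM (log2 fold change -1.02, edgeR adjusted p = 0.0034). *Elf3*, an epithelium-specific ETS factor, went from 81.9 ± 20.8 to 43.1 ± 11.9 CPM (-0.93, adjusted p = 0.0221) and lost the call without ft/ft replicate 1 (adjusted p = 0.0547) or ft/ftMyD88-/- replicate 1 (0.0606) or 4 (0.0684). *Pou2f3*, a POU factor of suprabasal cells, went from 67.8 ± 4.72 to 43.1 ± 5.46 CPM (-0.65, adjusted p = 0.000993). *Rora* was the other factor called lower (-0.55, and -0.32 with an adjusted p of 0.117 under epithelial scaling). Close relatives of the members were not called: *Klf5* (-0.20, adjusted p = 0.114), *Grhl2* (0.16, adjusted p = 0.314) and *Ovol2* (-0.50, adjusted p = 0.0559), the last opposite in sign to *Ovol1*. The number called higher was 3 without the 2 libraries that stood apart, and 11 and 12 with library size and epithelial scaling.

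In the Notch pathway outside the members, 28 genes were tested, of which 2 were called higher and 6 lower, with a median log2 fold change of -0.13. Of all genes tested 10.9% were called higher and 12.3% lower, and of those at the members' level 7.72% and 24.5%. Whether the pathway differed from these shares was not tested. Among those that fell were genes of gamma-secretase, the protease that releases the intracellular part of NOTCH1. *Aph1a* went from 119 ± 10.1 to 85.8 ± 2.94 CPM (-0.48, edgeR adjusted p = 0.00206) and *Ncstn* from 99.6 ± 3.45 to 73.9 ± 5.61 CPM (-0.43, adjusted p = 0.00315). *Psenen*, named after its values were seen, went from 71.8 ± 3.76 to 56.1 ± 1.13 CPM (-0.36, adjusted p = 0.00537). In these 3 genes the groups stood apart without overlap, as in 26.7% of all genes tested and 36.2% of those at the members' level. No single library left out ended a call. With epithelial scaling *Aph1a* (-0.25, adjusted p = 0.195), *Ncstn* (-0.20, 0.243) and *Psenen* (-0.13, 0.484) were not called.

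Also called lower were the receptor *Notch3* (-0.37, edgeR adjusted p = 0.0493) and the feedback regulator *Nrarp* (-0.34, adjusted p = 0.0257). They lost the call when any of 6 and any of 4 of the 8 libraries was left out (adjusted p up to 0.141 for *Notch3* and 0.0681 for *Nrarp*). Those called higher were *Mib1*, a ubiquitin ligase that activates Notch ligands (69.0 ± 1.25 to 86.8 ± 5.51 CPM, 0.33, adjusted p = 0.00938), and *Heyl*, a target gene (10.4 ± 1.78 to 18.7 ± 7.49 CPM, 0.85, adjusted p = 0.0412). The groups overlapped in *Heyl*, which lost its call when any of 6 of the 8 libraries was left out (adjusted p up to 0.108) and with limma voom (0.074). *Rbpj*, the DNA-binding partner, had 26.4 ± 1.63 and 23.1 ± 1.39 CPM and was not called (-0.19, adjusted p = 0.150).

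Among genes that mark the layers of the epidermis, those of the basal layer were mostly lower. Of 9 basal genes 7 were called lower and none higher (edgeR, median log2 fold change -0.67), among them *Krt15* (-1.36, adjusted p = 0.00013), *Lamb3* (147 ± 17.4 to 73.5 ± 8.04 CPM), *Col17a1* (-0.80) and *Krt5* (4994 ± 495 to 3131 ± 189 CPM, -0.67, adjusted p = 0.0014). The basal genes *Krt14* (0.05, edgeR adjusted p = 0.839) and *Itga3* (-0.01, adjusted p = 0.960) were not called. Without the 2 libraries that stood apart, and with epithelial scaling, 4 and 3 basal genes were called lower. Of 5 spinous genes 2 were called lower, *Sbsn* (-1.45) and *Krt10* (-0.58, and -0.34 with an adjusted p of 0.158 under epithelial scaling), while *Krt1* was not (-0.10, adjusted p = 0.702). Of 18 granular and cornified genes 8 were called lower, led by loricrin (*Lor*, 4030 ± 644 to 1417 ± 35.3 CPM, -1.51, adjusted p = 2.3e-05), *Flg2* (-1.25) and the lipoxygenase gene *Aloxe3* (39.1 ± 5.36 to 19.6 ± 1.64 CPM). This count of 8 held in each of the 8 sets of 7 libraries. In the same list 4 genes were called higher, led by *Rptn* (1.31), *Casp14* (1.10) and the desquamation protease gene *Klk7* (0.47), but this count was 1 without replicate 1 of either group, 0 without ft/ft replicate 3 or 4 and 2 without ft/ftMyD88-/- replicate 4. *Tgm1*, a cross-linking enzyme gene of the cornified envelope, was not called (0.29, adjusted p = 0.224).

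**Figure D5:**
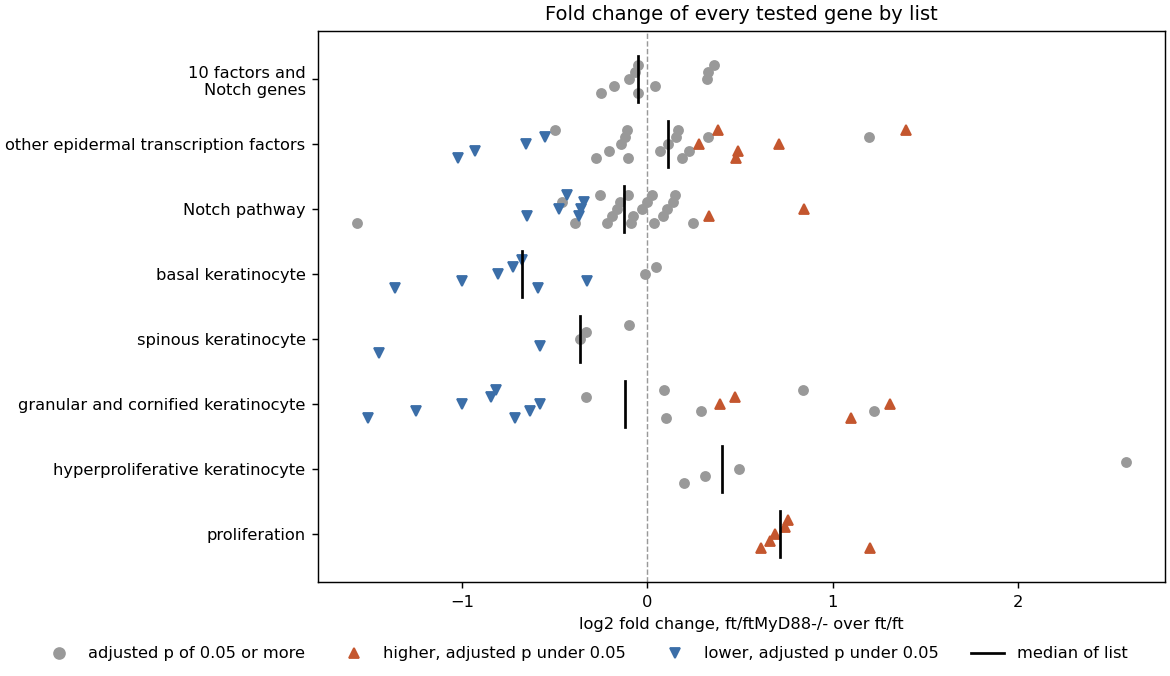
Log2 fold change, ft/ftMyD88-/- over ft/ft, of each tested gene in 8 lists, with triangles for genes called at an edgeR adjusted p under 0.05 and a black bar for the median of the list. The 10 members, in the top row, lie between -0.25 and 0.36, while basal genes lie mostly to the left and the 6 proliferation genes to the right.

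All 6 proliferation genes were called higher, with a median log2 fold change of 0.72, led by *Mki67* (1.20), *Cdk1* (0.76) and *Top2a* (0.74). *Mki67* lost its call when any library but ft/ft replicate 2 was left out (adjusted p up to 0.0861), and 5 to 6 genes of the list were called with a library left out. Of the 4 keratins induced in hyperproliferative epidermis none was called by edgeR (0 at an adjusted p under 0.05, 2 at an unadjusted p under 0.05), 1 was called by limma voom and 2 by DESeq2. *Krt6a* had a log2 fold change of 0.49 (adjusted p = 0.201). *Krt16*, named after its values were seen, had 104 ± 99.4 CPM in ft/ft and 626 ± 339 in ft/ftMyD88-/- without overlap (2.58, edgeR adjusted p = 0.053, two-sided exact permutation p = 0.0286).

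Most marker lists of other cells that the biopsy could hold differed between the groups in some of their genes. Of 8 epithelial reference genes 4 were called lower, and their summed level was 5866 to 7835 CPM in ft/ft and 4499 to 5716 in ft/ftMyD88-/-. Skeletal muscle genes (6 of 6), sebocyte genes (5 of 7), fibroblast genes (3 of 6), conjunctiva and cornea genes (3 of 6) and endothelial genes (2 of 6, with 1 higher) were called lower. Genes of T cells (6 of 6), hair matrix (3 of 7), plasma cells (2 of 5), macrophages (1 of 6) and neutrophils (1 of 5 tested) were called higher. The summed levels of macrophage genes (249.5 to 345 CPM in ft/ft and 289.8 to 401 in ft/ftMyD88-/-) and of conjunctiva and cornea genes (1199 to 2319 and 960.4 to 1668 CPM) were not separate in the groups (exact permutation p, two-sided, of 0.4 and 0.143). Those of sebocyte genes (5533 to 6468 and 4487 to 5830 CPM) and of hair matrix genes (94.1 to 168 and 154 to 1061 CPM) also overlapped (two-sided exact permutation p of 0.0571 for each). With single libraries left out, these counts ran from 1 to 5 for hair matrix, 1 to 2 for plasma cells and macrophages, 0 to 3 for neutrophils, 3 to 6 for T cells (3 without ft/ft replicate 4) and 3 to 5 for sebocytes (3 without ft/ftMyD88-/- replicate 4). They ran from 1 to 2 lower and 0 to 1 higher for endothelial genes and from 1 to 4 lower for conjunctiva and cornea. Of the sex-linked genes, *Xist* was higher and all 4 Y-linked genes were lower. The part of these cell contents in the levels of the 10 members was not tested.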

How the data were processed

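RNA-seq counts of eye-skin biopsies were taken from a table of raw counts per gene that the authors deposited, for which, per the paper's methods, reads were mapped to GRCm38.p6 (HISAT, tophat2) and counted per gene by HTSeq with its defaults. Versions and annotation release are not given in the sources used here. The defaults of HTSeq count by strand, and whether the libraries mark strand is not given in the sources used here. The paper gives polyA selection, whereas the sample labels give total RNA and a protocol for fixed tissue and name Cell Ranger, so how reads cover a gene, and with it a level per kilobase, is uncertain. Libraries were grouped by their labels, 4 ft/ft and 4 ft/ftMyD88-/-, and all columns of per-sample values were used. The paper gives 4 mice per group. Replicates of a group differed by far more than sampling noise (chi-square divided by its degrees of freedom, 15.1 or more in every pair).

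Genes with at least 10 counts in sum (20454 of 21247) were fitted with edgeR 4.0.16 in R 4.3.3 (TMM, glmQLFit with robust = TRUE, glmQLFTest, no covariate, two-sided, Benjamini-Hochberg, threshold 0.05). Intervals are 95% on the fitted log2 fold change. Simulated data gave back 200 of 200 genes changed 4-fold, with 7 false calls among 20180 genes tested. The simulation held no smaller changes, so it does not show how often changes of the members' size would be found. Single genes were also compared by exact permutation tests of CPM, and ratios with 0.5 added to each count, with intervals from inverting that test. DESeq2 1.42.0, limma voom (limma 3.58.1), other scalings, filters and thresholds and the omission of libraries were tried. The omission of ft/ft replicate 2 with ft/ftMyD88-/- replicate 1, the libraries highest in the epithelial reference, was chosen after seeing the data.

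The members and all gene lists were chosen with earlier results of these data known. Named genes were the members, the 3 called genes of largest change per direction in a list, the first gene of a layer list, the 3 nearest profiles of the members of smallest adjusted p per direction, and *Xist*, *Ddx3y* and *Myd88*. Some genes that this rule names are not reported here. Exon lengths and overlaps came from GENCODE M21 and sequences from RefSeq GRCm38.p6, where all 10 members matched.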

Additional observations from a re-analysis of the deposited data

How the results depend on the processing

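Counts of members called higher were 1 with DESeq2, with edgeR's RLE factors and with a stricter filter on low counts, 2 with library size alone, 3 with epithelial scaling and 0 to 1 when a library was left out. Members called lower were 1 without ft/ft replicate 2 and ft/ftMyD88-/- replicate 1 together, and 0 to 1 when a single library was left out. Over all genes, 4638 were called higher and 1326 lower with library size alone, 3920 and 731 with epithelial scaling, 951 and 1350 at an adjusted p under 0.01, and 752 and 520 with a log2 fold change of at least 1, against 2239 and 2525. Left-out libraries gave 1462 (without ft/ft replicate 4) to 2260 higher and 1851 to 2408 lower. Other epidermal factors called higher were 11 with library size alone, 12 with epithelial scaling, 3 at 0.01, 1 with the fold minimum, 3 without both libraries and 4 to 7 with single libraries left out; called lower they were 1 with the fold minimum and 3 to 5 with single libraries left out. Notch genes called higher were 1 with limma voom, 4 with epithelial scaling, 1 at 0.01, 0 with the fold minimum, 1 without both libraries and 1 to 2 with single libraries left out; called lower they were 3 with library size alone, 1 with epithelial scaling, 0 with the fold minimum and 4 to 6 with single libraries left out. The cause of these shifts was not tested.

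Signs turned with library size alone in *Klf4* (0.13), *Grhl3* (0.11), *Zfp750* (0.075) and *Hes1* (0.13), and with epithelial scaling in *Trp63* (0.040), *Klf4* (0.18), *Grhl3* (0.16), *Zfp750* (0.12) and *Hes1* (0.16). Leaving out a library also turned the sign of *Klf4* (-0.093 to 0.0042), *Grhl3* (-0.17 to 0.068), *Zfp750* (-0.24 to 0.011), *Prdm1* (-0.10 to 0.21), *Hes1* (-0.093 to 0.035), *Zfp750* over *Trp63* (-0.020 to 0.18) and *Jag1* over *Notch1* (-0.049 to 0.13). None of these was called. With the replicate number as a block, 0 members were called, and *Jag1* had a log2 fold change of 0.35 (adjusted p = 0.106). Same-numbered libraries did not deviate together (correlations of -0.349, 0.0381, 0.0719 and -0.0298), which does not show whether they share more than a number. At these depths the member counts ran from 766 to 15977 per library, so the spread between libraries rather than counting limits the intervals.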
